A study of Bos taurus with 46 samples.

Results

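The enzymes that write, recruit and remove DNA methylation were followed in circulating leukocytes of pregnant heifers. The members were DNMT1, DNMT3A, DNMT3B, UHRF1, UHRF2, TET1, TET2, TET3, TDG and MBD4. They were chosen by symbol for their known roles, with earlier results of these data known. All 10 were present in the NCBI gene table of 30675 genes, of which 25404 had at least 1 read. Blood was drawn from 23 heifers on day 55 (D55) and again on day 105 (D105) of gestation, which gave 46 RNA sequencing libraries with 1 heifer per library. The AI group (n = 8) had conceived by artificial insemination. The other heifers had received embryos produced in vitro. They carried a fetus of ordinary weight (IVP-Normal, n = 6, labelled ARTnormal) or a fetus with large offspring syndrome (IVP-LOS, n = 9, labelled ARTLOS). This congenital overgrowth was defined in the study by a fetal weight on D105 at or above a high percentile of same-sex AI fetuses. All were Angus crossbred heifers in the second year of life whose oestrus had been synchronised with a progesterone insert and prostaglandin, and the in vitro embryos came from oocytes fertilised with semen of 1 Brahman bull and grown in medium with added serum. Some IVP heifers carried 2 fetuses. Heifers 604 and 664, both IVP-LOS, carried the 2 largest fetuses and were compared with the other 21. In the study's listing heifer 604 carried 2 fetuses, while only 1 fetal weight is given for heifer 664. The study set this pair apart by fetal weight, and also saw it separate when these same libraries were clustered, so that it is not a grouping made without sight of the expression values.

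DNA methylation in mammals is placed mostly on cytosines that precede a guanine. DNMT3A and DNMT3B set the mark on DNA that lacks it, and DNMT1 copies it onto the new strand after replication, led there by UHRF1, which binds DNA methylated on only one strand. UHRF2 is the paralog of UHRF1. The TET enzymes oxidise the methylated base, and the glycosylases TDG and MBD4 cut out bases that base excision repair then replaces with unmodified cytosine, TDG taking oxidised forms and mismatched thymine and MBD4 mainly mismatched thymine or uracil. In blood, DNMT3A and TET2 are widely known as regulators of haematopoietic stem cells whose mutation is found in clonal blood disorders.

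Each library held between 18692653 and 24502012 reads on genes. Reads on no gene made up 23.6% to 31.1% of the reads in 44 libraries, and 38.6% and 36.7% in the D105 libraries of heifers 604 and 664. Libraries are labelled BACKUP for AI and IVP-LOS heifers on D105 and New otherwise, so day and library set cannot be told apart within AI and IVP-LOS. The IVP-Normal comparison of days lies within 1 set. The study describes D55 blood as collected in winter and D105 blood as collected in summer, without a season for each library. Season therefore cannot be told apart from the day in any group, IVP-Normal included. Summed levels of marker genes for T cells, B cells, neutrophils, monocytes and NK cells were above 178 CPM in every library. CPM is the read count scaled to a common library total. Single markers fell far lower, GZMB of the NK list to 0.041 CPM and MMP9 of the neutrophil list to 0.121 CPM. The lowest value of any other marker in these lists was 2.28 CPM, for KLRB1. The sums do not show by themselves that each cell type was present. In such bulk RNA, fewer cells of a type and less RNA per cell cannot be told apart.

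All levels below are CPM scaled by TMM, which corrects for the makeup of each library, and were compared only within a gene since gene length was not taken into account. All members were well above the limits of counting. TET1 had the fewest reads, 89 to 452 per library, followed by UHRF1 with 239 to 1030. TET2 and DNMT3A had at least 3363 and 3298 reads in every library. The members differed in how far their levels spread over the 46 libraries. DNMT3B was the most variable, from 25.6 to 134 CPM (5.22-fold, coefficient of variation 37.3%). TET1 ranged from 4.65 to 19.1 CPM (4.10-fold, 32.3%) and UHRF1 from 12 to 43.8 CPM (3.65-fold, 30.7%). The other members lay between 1.64-fold for TDG and 2.65-fold for TET2, with coefficients of variation of 11.8% to 18.3%. A de novo enzyme, an oxidase and a recruiter of DNMT1 thus varied more than DNMT1 itself, whose level ran from 61.1 to 109.004 CPM.

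**Figure D1:**
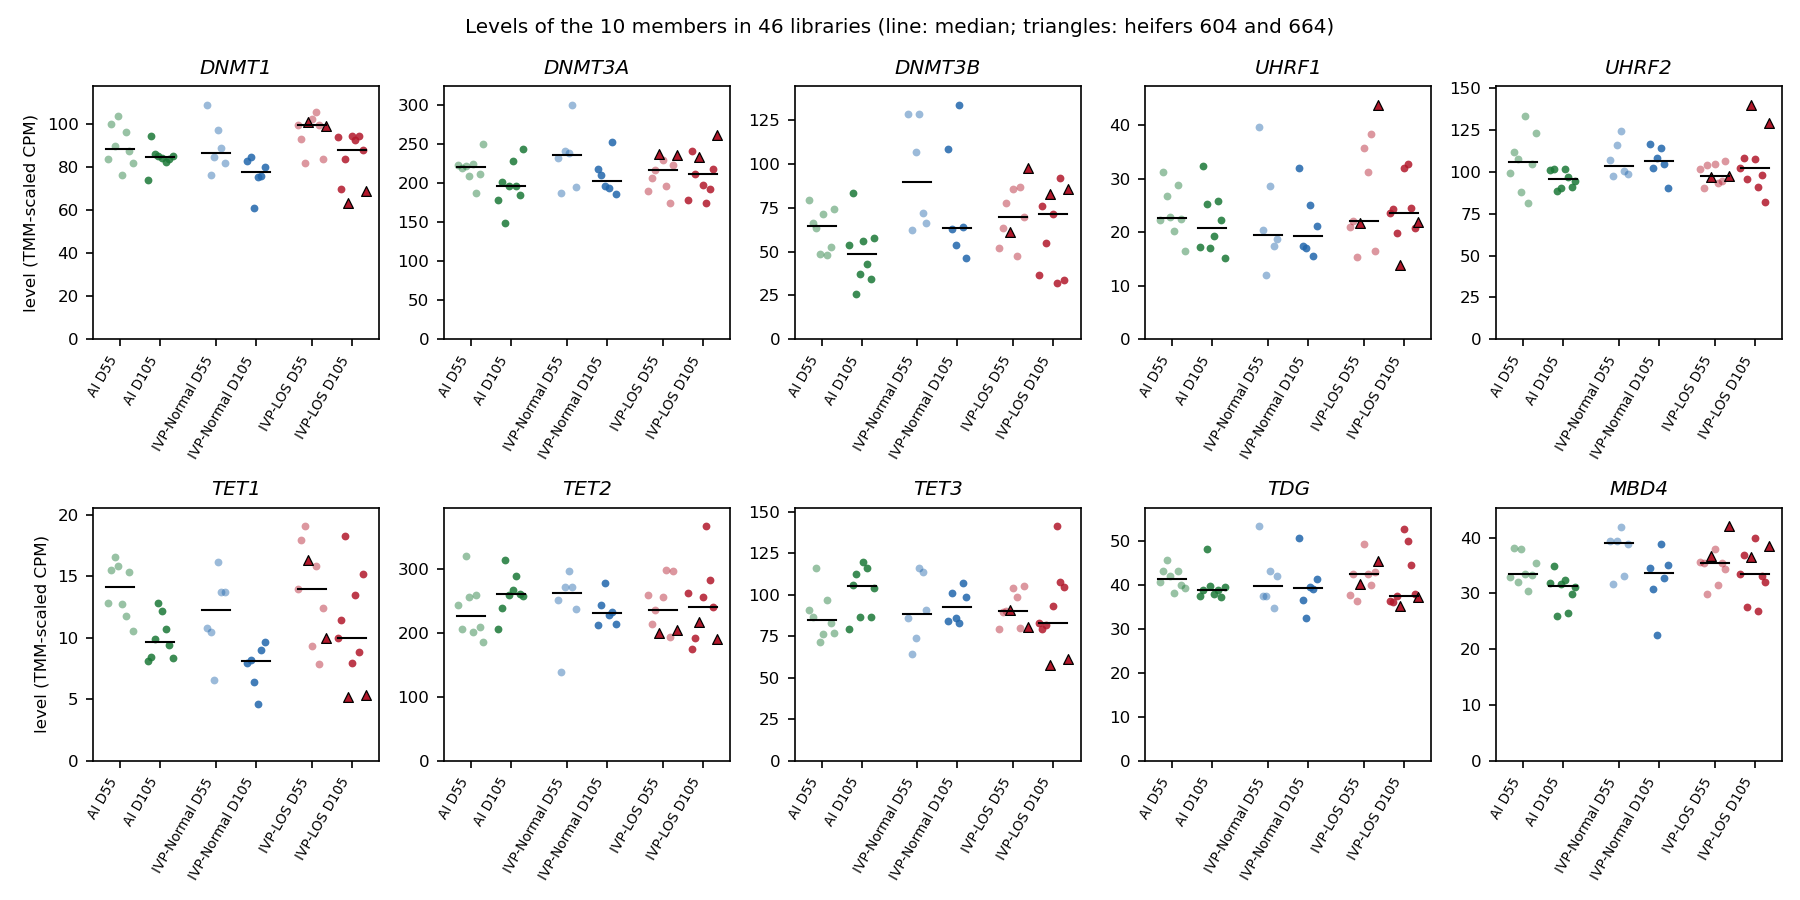
Level (TMM-scaled CPM, each vertical axis from 0) of each member in 46 libraries, by group and day; points are libraries, lines are group medians and triangles are heifers 604 and 664. DNMT3B, TET1 and UHRF1 spread most, and on D105 the triangles lie below all other heifers for TET3 and above them for UHRF2.

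The first comparison asked whether the members changed between D55 and D105 in the same heifers. TET1 was the member that fell in the AI group. On D55 its level in AI heifers was 10.6 CPM at the lowest, 14.1 at the median and 16.6 at the highest, and on D105 it was 8.15, 9.67 and 12.8. The 2 days overlapped between heifers, but the level was lower on D105 in each of the 8 AI heifers. The log2 fold change was −0.47 (SE 0.122, 0.724-fold), with an adjusted p of 0.0199 by edgeR's quasi-likelihood test. The other 9 members were not called in this group, so 1 of 10 members was called where 9.95% of the 15248 genes tested were. The median log2 fold change of the members was −0.131, against −0.0232 over all genes. With the heifer as a block, since the same animals were bled on both days, TET1 was again the only member called (log2 fold change −0.47, adjusted p = 0.0113), and the genes called rose from 1517 to 2603. In a single fit of all 46 libraries TET1 had the same log2 fold change and an adjusted p of 0.204 in edgeR, the highest of 8 alternatives, which began at 0.00418.

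TET1 was lower on D105 in most heifers of the other groups too, but was not called there. In IVP-Normal heifers it was 6.56, 12.3 and 16.2 CPM on D55 at the lowest, median and highest, and 4.65, 8.09 and 9.65 on D105. It was lower on D105 in 6 of 6 heifers (log2 fold change −0.65, SE 0.226, edgeR adjusted p = 0.207, or 0.11 with the heifer as a block). Heifer 633 went from 16.2 to 4.65 CPM, the largest drop of any heifer, while heifer 628 was nearly level at 6.56 and 6.38 CPM. In IVP-LOS heifers TET1 was 7.87, 13.97 and 19.1 CPM on D55 and 5.18, 10 and 18.3 on D105. It was lower in 7 of 9 heifers and higher in heifers 656 and 663 (log2 fold change −0.35, SE 0.243, edgeR adjusted p = 0.593, or 0.263 with the heifer as a block). Without heifers 604 and 664 this log2 fold change was −0.18. No member was called in either IVP group, where 2.45% (IVP-Normal) and 0.251% (IVP-LOS) of genes were. Without the block, 2 members in IVP-Normal had an unadjusted p under 0.05, TET1 and DNMT1, beside 2035 of 15248 genes. In IVP-LOS 1 member did, DNMT1, beside 1911 of 15163 genes. The likelihood ratio test of edgeR and DESeq2 also called 0 members in both groups.

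The glycosylase MBD4 was lower on D105 in as many heifers as TET1, by a smaller amount. Its median went from 33.4 to 31.4 CPM in AI, from 39.1 to 33.6 in IVP-Normal and from 35.5 to 33.5 in IVP-LOS heifers. The groups of both days overlapped throughout, yet 21 of 23 heifers had a lower level on D105, with heifers 557 and 616 as the exceptions. How many of all genes were lower in as many heifers was not counted, for MBD4 or for TET1. No group passed the test. The AI group came nearest, with a log2 fold change of −0.16 (SE 0.0697) and an edgeR adjusted p of 0.189, or 0.0554 with the heifer as a block. Heifer 628 had the largest drop, from 39.4 to 22.5 CPM.

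**Figure D2:**
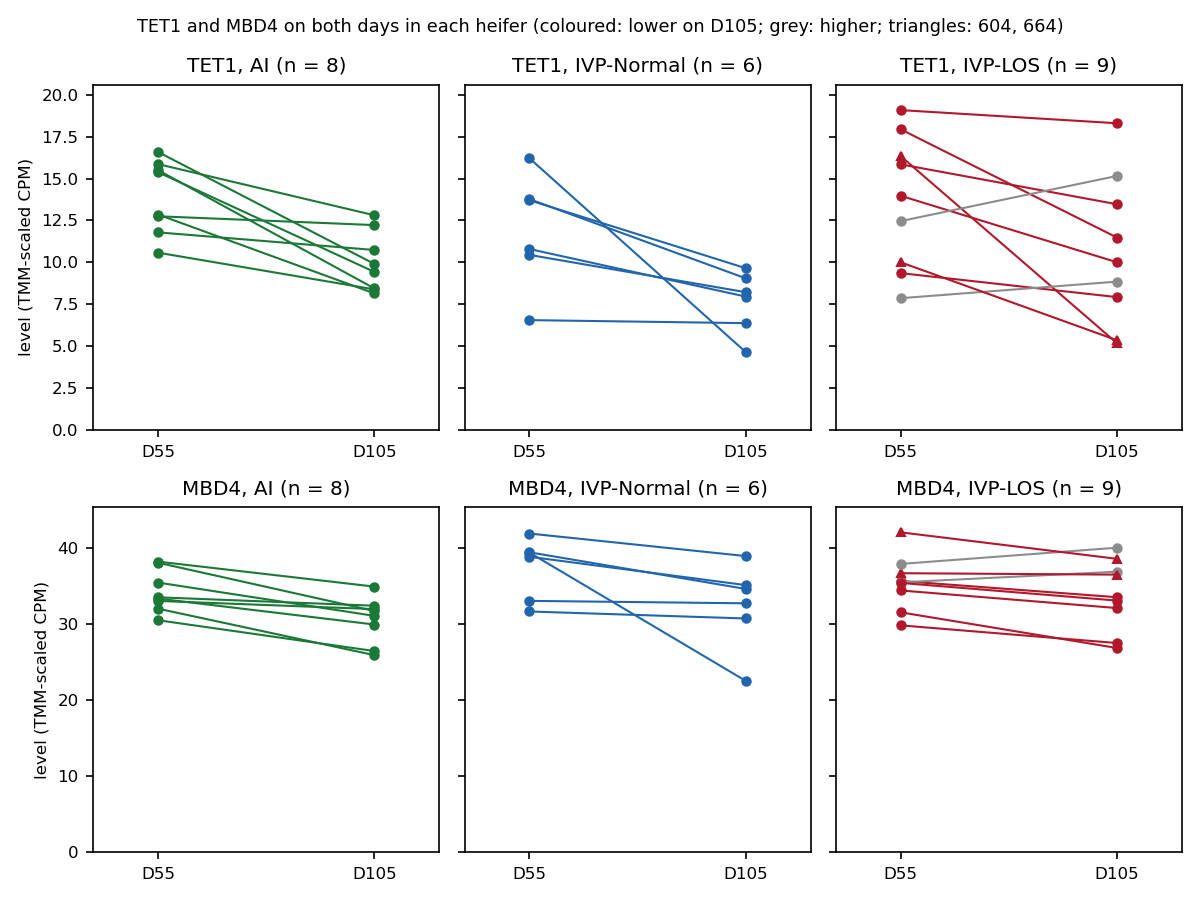
TET1 (upper) and MBD4 (lower) level in TMM-scaled CPM on D55 and D105, with 1 line per heifer and 1 panel per group; coloured lines fall and grey lines rise, and triangles are heifers 604 and 664. Each gene was lower on D105 in 21 of 23 heifers, and the grey lines are 2 IVP-LOS heifers for each gene.

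The remaining members were not called between days in any group. DNMT1 was lower on D105 in 18 of 23 heifers, DNMT3A and DNMT3B in 17, TDG in 16 and UHRF1 in 15. TET2, TET3 and UHRF2 were lower in 11 and higher in 12. Such counts of heifers were not made over all genes. In AI heifers the log2 fold change was −0.35 for DNMT3B (edgeR adjusted p = 0.301), +0.23 for TET3 (0.222) and +0.16 for TET2 (0.397), and none of these was called. With the heifer as a block the edgeR adjusted p were 0.0616 for DNMT3B, 0.0959 for TET3 and 0.154 for TET2, again without a call. The medians of TET3 in AI heifers were 84.7 CPM on D55 and 105 CPM on D105, with ranges of 71.7 to 116.1 and 79.4 to 119.8 that overlapped.

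Leukocyte markers moved with the day. In AI heifers all 6 neutrophil markers tested rose (median log2 fold change 1.42), and their summed level went from 592 to 1461 CPM on D55 to 1539 to 4600 CPM on D105, without overlap. Of 6 monocyte markers 2 rose (median 0.64), while 0 of 6 B-cell markers were called (median −0.289) and 1 of 7 T-cell markers rose. In IVP-Normal heifers 3 of 6 neutrophil markers rose, with a median of 1.42. In IVP-LOS heifers 0 of 6 neutrophil markers were called by edgeR, with 3 at an unadjusted p under 0.05 and a median of 1.37. The part of these markers in the TET1 values was not tested.

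A difference between groups in the change from D55 to D105 was tested directly and was not detectable for any member. The difference for TET1 was −0.17 on the log2 scale (SE 0.319) between IVP-Normal and AI, 0.11 (SE 0.286) between IVP-LOS and AI, and 0.28 (SE 0.311) between IVP-LOS and IVP-Normal. In these 3 tests 0% of the 16487 genes were called by edgeR, with 466, 808 and 201 genes and 0, 1 and 0 members at an unadjusted p under 0.05. That member was UHRF2, whose change was 0.24 higher in IVP-LOS than in AI (SE 0.114, edgeR adjusted p = 0.948). DESeq2 called 0, 1 and 0 genes and no member. These 3 tests share libraries with one another.

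The second comparison asked whether the groups differed on the same day. No member was called in any of the 6 pairs of groups, and neither was any other gene (0% of genes in each pair) by edgeR's quasi-likelihood test. The likelihood ratio test of edgeR called between 1 and 11 genes per pair, DESeq2 between 2 and 42, and both called 0 members. At an unadjusted p under 0.05 there were between 501 and 1522 genes per pair. Only DNMT3B on both days and TET1 and UHRF2 on D105 were among them, all between IVP-Normal and AI.

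DNMT3B had the largest of these differences. On D55 its level was 47.9, 64.8 and 79.4 CPM (lowest, median, highest) in AI, 62.4, 89.6 and 128.6 CPM in IVP-Normal and 47.5, 69.6 and 97.5 CPM in IVP-LOS heifers. On D105 it was 25.6, 48.4 and 83.6 CPM in AI, 46.6, 63.4 and 134 CPM in IVP-Normal, and 32.4, 71.5 and 91.8 CPM in IVP-LOS heifers. The groups overlapped on both days. On D55 the high end of IVP-Normal was made up of heifers 519 and 633, at 128.3 and 128.6 CPM, and heifer 628, at 107.013 CPM. Each of these lay above the highest AI and the highest IVP-LOS heifer on that day. The log2 fold change of IVP-Normal against AI was 0.57 on D55 (SE 0.18, unadjusted p = 0.00624, edgeR adjusted p = 0.493) and 0.68 on D105 (SE 0.275, unadjusted p = 0.0257, edgeR adjusted p = 0.514). On D105 these groups also differ in library set, which cannot be told apart from the group. B-cell markers were also highest in IVP-Normal heifers on D55. Their sum had medians of 3303 CPM in AI, 4204 in IVP-Normal and 3173 in IVP-LOS heifers, with 0 of 6 markers called by edgeR and 5 at an unadjusted p under 0.05 between IVP-Normal and AI. Their part in the DNMT3B values was not tested.

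On D105 TET1 was lower in IVP-Normal than in AI heifers by the unadjusted test only (log2 fold change −0.38, SE 0.164, edgeR adjusted p = 0.514), with ranges of 4.65 to 9.65 and 8.15 to 12.8 CPM that overlapped. UHRF2 differed by 0.15 in the other direction (SE 0.0667, edgeR adjusted p = 0.514). Between IVP-LOS and AI heifers, the widest differences of a member were 0.19 for UHRF1 on D55 (SE 0.199, edgeR adjusted p = 0.827) and 0.35 for DNMT3B on D105 (SE 0.255, edgeR adjusted p = 0.754). Standard errors of the members in this comparison ran from 0.0594 for TDG on D55 to 0.255 for DNMT3B on D105.

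The third comparison set heifers 604 and 664 against the other 21. On D55 no member was called by edgeR (0 of 10, where 0.0179% or 3 genes were, with 0 members and 790 genes at an unadjusted p under 0.05), and edgeR's likelihood ratio test and DESeq2 called 5 and 10 genes and 0 members. TET3 was 90.7 and 80.7 CPM in heifers 604 and 664, inside the 64.4 to 116.1 CPM of the others. UHRF2 was 96.9 and 97.5 CPM, against 81.5 to 133. UHRF1 was apart in 1 of the pair only, with 43.8 CPM in heifer 664, the highest of all libraries, and 21.8 CPM in heifer 604. MBD4 was 42.0 CPM in heifer 664, just above the highest other heifer at 41.9 CPM, and 36.7 CPM in heifer 604.

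On D105, 4 of 10 members were called, TET3, TET1 and DNMT1 as lower and UHRF2 as higher, where 21.1% of the 16841 genes tested were called. TET3 was 57.8 CPM in heifer 604 and 61.3 CPM in heifer 664. The others had 79.4 at the lowest, 98.9 at the median and 141 at the highest, so that both lay below every other heifer. The log2 fold change was −0.76 (SE 0.173, edgeR adjusted p = 0.00585). UHRF2 was 140 and 130 CPM, above the 82.0, 100.9 and 116.8 CPM of the others (lowest, median, highest). Its log2 fold change was 0.40 (SE 0.0961, edgeR adjusted p = 0.00703). TET3 and UHRF2 were the members for which both heifers lay outside the range of the others, which 14.2% of genes did on D105 and 0.843% on D55.

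DNMT1 and TET1 were low in the pair without standing fully apart. DNMT1 was 63.2 and 68.8 CPM, against 61.1, 84.3 and 94.6 CPM, and heifer 628 was lower than both (log2 fold change −0.37, SE 0.123, edgeR adjusted p = 0.035). TET1 was 5.18 and 5.36 CPM, against 4.65, 9.43 and 18.3 CPM, with heifer 633 lower than both (log2 fold change −0.97, SE 0.33, edgeR adjusted p = 0.0401). The other 6 members were not called. DNMT3A was 233 and 261 CPM, with 3 of the other heifers above heifer 604 and none above heifer 664 (log2 fold change 0.26, edgeR adjusted p = 0.142). DNMT3B, at 83.2 and 85.6 CPM, was inside the wide range of 25.6 to 134 CPM (log2 fold change 0.46, edgeR adjusted p = 0.421). UHRF1 was 13.9 CPM in heifer 604, below all others, and 21.9 CPM in heifer 664, near their median of 22.4 CPM. The median log2 fold change of the 10 members was −0.268, against −0.0222 over all genes.

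**Figure D3:**
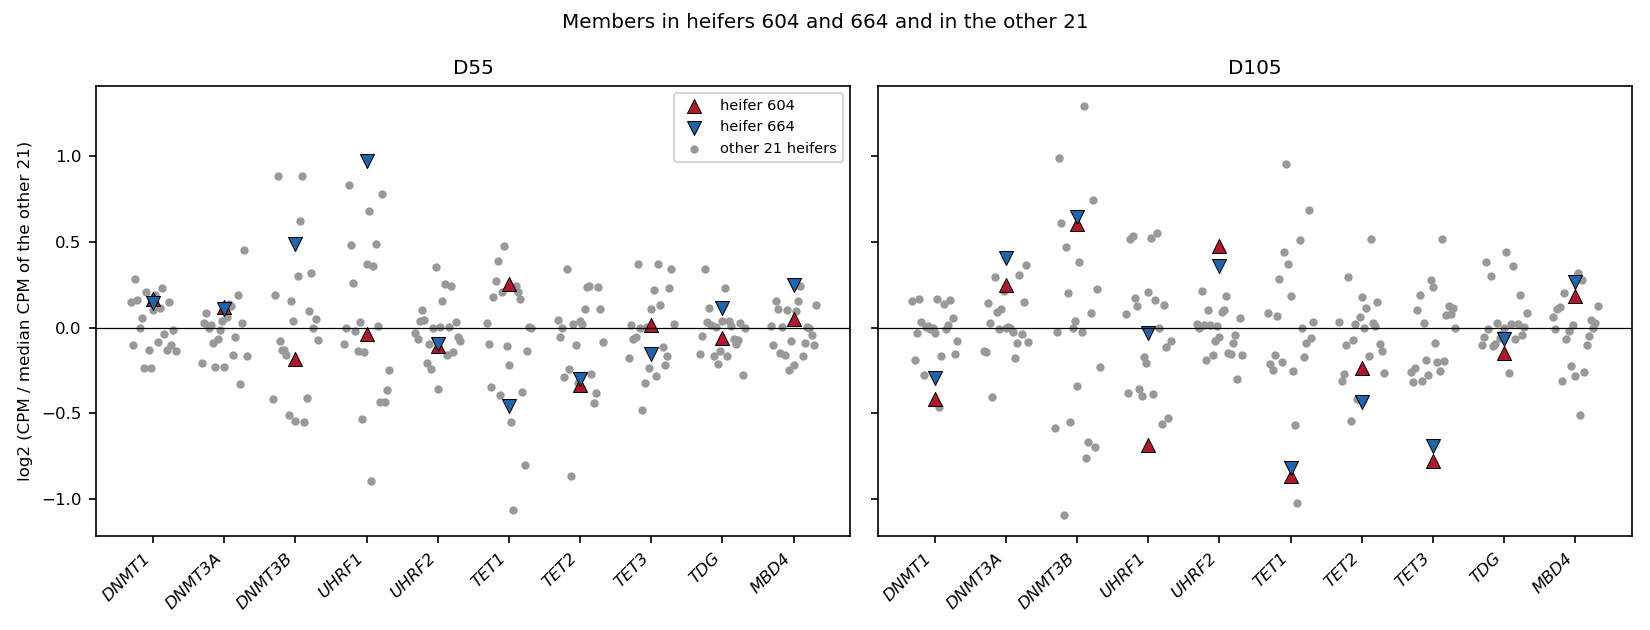
Level of each member in heifers 604 and 664 and in the other 21, as the log2 ratio to the median of the other 21, on D55 (left) and D105 (right). On D55 both heifers lie among the others for 8 members and heifer 664 alone lies above them for UHRF1 and MBD4, while on D105 both lie below the others for TET3 and above them for UHRF2.

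These calls moved with the libraries in the fit and with other properties of the same libraries. With 1 heifer of the pair left out, the remaining library was assumed to vary like the other 21. Without heifer 604, 0 members and 3.27% of genes were called, and without heifer 664, 0 members and 4.17%. The log2 fold changes stayed close in both cases, at −0.71 and −0.80 for TET3 and at 0.35 and 0.46 for UHRF2, with edgeR adjusted p of 0.0861 and 0.062, and 0.117 and 0.0542. With the share of reads on no gene as a covariate, 0 members and 0 genes were called and the log2 fold changes were −0.08 for TET3, −0.02 for DNMT1, 0.12 for UHRF2 and −0.81 for TET1 (edgeR adjusted p between 0.599 and 0.976). On D105 that share was 38.6% and 36.7% in the pair and at most 31.05% in the other heifers. This fit therefore cannot separate the pair from the share. Within the BACKUP libraries alone the same 4 members were called, with 29.9% of genes, so these calls were also made within 1 set of libraries. Among IVP-LOS heifers alone 2 members were called, TET1 (log2 fold change −1.25, edgeR adjusted p = 0.047) and UHRF2 (0.42, 0.0478), with 9.05% of genes. TET3 and DNMT1 were not called there, with log2 fold changes of −0.77 and −0.46 (edgeR adjusted p of 0.0584 and 0.0602).

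The makeup of these 2 libraries differed as well. Neutrophil markers summed to 303 and 377 CPM in heifers 604 and 664, against 660 to 11810 CPM in the others, and 5 of 6 fell (median log2 fold change −3.53). Monocyte markers summed to 207 and 198 CPM, against 333 to 2458 CPM, with 5 of 6 lower (median −2.52), and proliferation markers to 165 and 181 CPM, against 227 to 580 CPM, with 7 of 9 lower (median −0.966). Platelet markers summed to 5906 CPM in heifer 604 and 797 CPM in heifer 664, against 254 to 1500 CPM, with 4 of 5 higher (median 2.16). Of 6 B-cell markers 2 were higher (median 0.745), 1 of 7 T-cell markers was lower, 1 of 3 erythroid markers was higher and 0 of 6 NK-cell markers were called by edgeR, also at an unadjusted p under 0.05. No neutrophil, monocyte, B-cell or T-cell marker in the table was at 0 in any library, while HBA, HBA1 and SLC4A1 of the erythroid list had a median of 0 over the 46 libraries. The part of these markers in the member values was not tested.

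Whether the pair moved away from the others between D55 and D105 was tested as an interaction. Without the heifer as a block, 0 of 10 members were called by edgeR, where 2.08% of the 17266 genes tested were, and 4 members had an unadjusted p under 0.05, beside 3831 genes. UHRF2 came nearest (0.51 on the log2 scale, SE 0.156, edgeR adjusted p = 0.0632), followed by DNMT1 (−0.50, SE 0.161, 0.0767), TET3 (−0.68, SE 0.237, 0.0929) and TET1 (−0.95, SE 0.422, 0.178). With the block, which the repeated bleeding of the same animals allows, 4 members were called, UHRF1 (−0.81, edgeR adjusted p = 0.0116), DNMT1 (−0.50, 0.0164), UHRF2 (0.50, 0.0173) and TET3 (−0.68, 0.031), along with 16.7% of genes. The UHRF1 value follows the drop from 43.8 to 21.9 CPM in heifer 664 and from 21.8 to 13.9 CPM in heifer 604.

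The last comparison asked whether the level of a member belonged to the heifer, as libraries of the same animal would share it on both days. It was tested on all 46 libraries after group and day means, as the spread between heifers against the spread within them. Of the 10 members 5 were called by edgeR, where 44.0% of the 16487 genes were, so the members as a list stood near the background. UHRF1 had the highest F (5.07, adjusted p = 0.00079), then DNMT3B (4.40, 0.00194), TDG (3.62, 0.00608), DNMT3A (2.93, 0.0186) and MBD4 (2.91, 0.0194). TET2, TET1, TET3, DNMT1 and UHRF2 were not called, with adjusted p from 0.0855 to 0.419. The likelihood ratio test of edgeR added TET1 and TET2, with 55.3% of genes called.

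As a description, the deviations from the group mean on D55 and on D105 had a Pearson r over the 23 heifers of 0.67 for UHRF1, 0.66 for TDG, 0.64 for DNMT3B, 0.58 for MBD4 and 0.53 for DNMT3A. It was 0.32 for TET2, 0.29 for TET1, 0.21 for TET3, 0.12 for DNMT1 and 0.09 for UHRF2, and the median over all genes kept was 0.38. The Spearman r, taken on ranks, was lower for TDG, at 0.49. It was 0.69 for UHRF1, 0.67 for DNMT3B, 0.70 for MBD4 and 0.55 for DNMT3A. Single heifers show what this means. Heifer 519 (IVP-Normal) had the highest UHRF1 of its group on both days, 39.7 and 32.1 CPM, and also the highest TDG, 53.2 and 50.7 CPM. Heifer 633 (IVP-Normal) held the highest DNMT3B of its group, with 128.6 and 133.8 CPM, and heifer 637 (IVP-LOS) the lowest of its group, with 47.5 and 32.4 CPM. Heifer 669 (IVP-Normal) had the highest DNMT3A of its group, with 300 and 253 CPM. Without heifers 604 and 664 the r of UHRF1 was 0.78. Of the marker lists, 6 of 6 B-cell, neutrophil and monocyte markers and 4 of 9 proliferation markers were called in the same test.

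**Figure D4:**
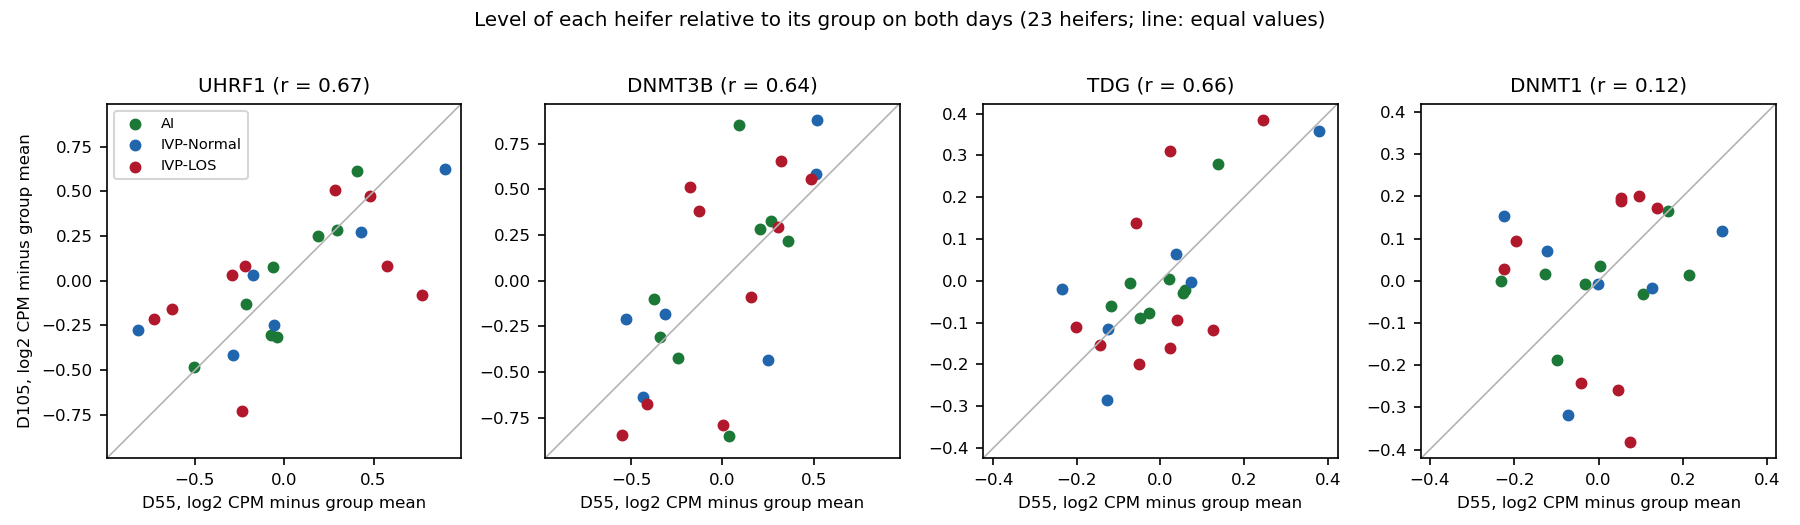
Deviation of each heifer from its group mean in log2 CPM on D55 (horizontal) and D105 (vertical) for UHRF1, DNMT3B, TDG and DNMT1; points are the 23 heifers, coloured by group, and the line marks equal values. Points follow the line for UHRF1 (r = 0.67), DNMT3B (0.64) and TDG (0.66, but 0.49 on ranks), and scatter around it for DNMT1 (0.12).

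The members followed different leukocyte markers. The correlations below are over 46 libraries with group and day means subtracted, and are descriptions only, since the points share heifers, depth and the makeup of a library. UHRF1 followed the summed proliferation markers (r = 0.85), as did DNMT1 (0.73), TDG (0.63) and TET3 (0.55). DNMT3B followed the B-cell markers (0.85), and so did UHRF2 (0.65), MBD4 (0.60) and DNMT3A (0.47), while TET1 ran against them (−0.64). TET2 and TET3 followed the monocyte markers (0.63 and 0.61), and DNMT3B, DNMT3A and UHRF2 ran against them (−0.68, −0.65 and −0.64). MBD4 ran against the neutrophil markers (−0.61). UHRF2 followed the share of reads on no gene (0.66) and DNMT1 ran against it (−0.57). Without the D105 libraries of the pair, these values were 0.52 and −0.41. TET3 was then at 0.496 with monocyte and 0.44 with proliferation markers, and UHRF2 at −0.53 with monocyte markers. UHRF1 with proliferation markers (0.87) and DNMT3B with B-cell markers (0.85) held without these libraries. Among the members, over all 46 libraries, TET2 ran with TET3 (0.69) and UHRF1 with TDG (0.67) and with DNMT1 (0.61). DNMT3B ran with UHRF2 (0.64) and with MBD4 (0.59), and against TET1 (−0.50).

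**Figure D5:**
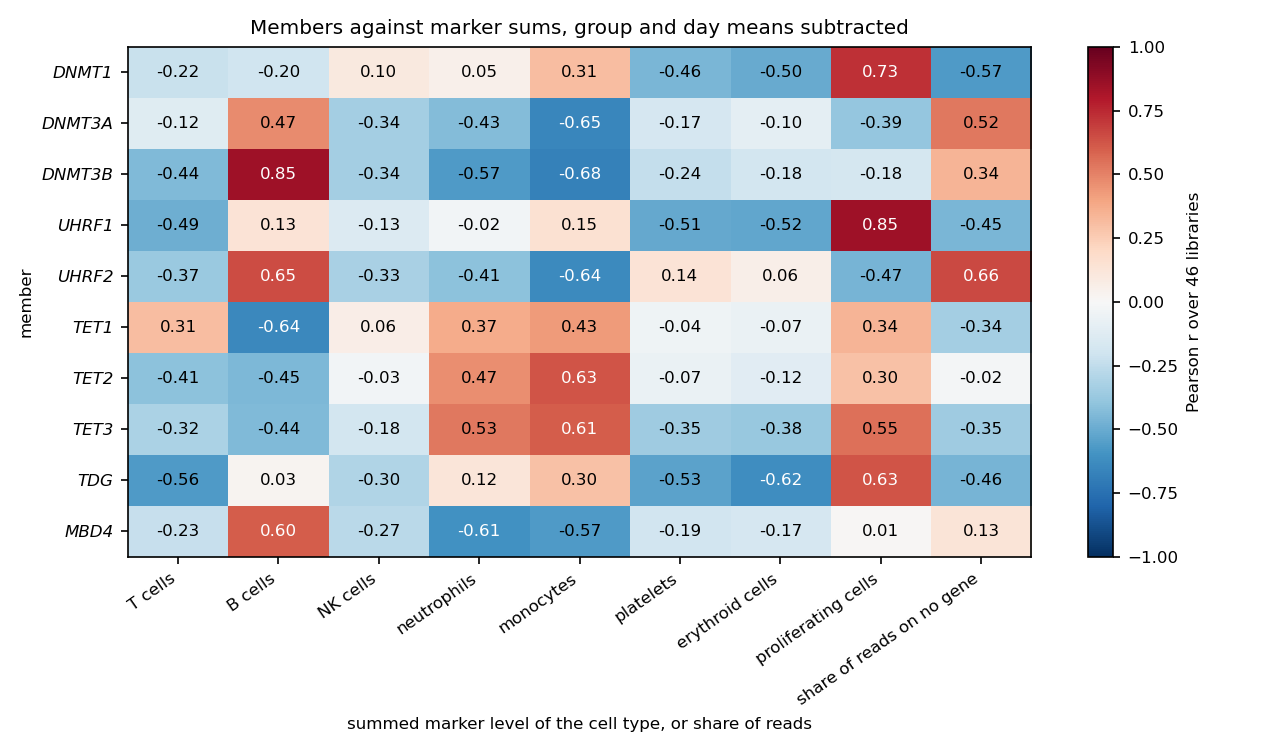
Pearson r of each member (vertical) with the summed level of each marker list and with the share of reads on no gene (horizontal), over 46 libraries after group and day means; red is positive and blue negative. The strongest cells are UHRF1 with proliferation markers and DNMT3B with B-cell markers, both 0.85.

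Over all 16487 genes kept, those most like each member by the same measure were as follows. UHRF1 was closest to NEK2 (r = 0.92), a mitotic kinase, MCM2 (0.92), a subunit of the replicative helicase that is also on the proliferation list, and PRC1 (0.91), which acts in cytokinesis. DNMT3B was closest to FCRL1 (0.89), a B-cell surface receptor, HABP4 (0.88) and PROX1 (0.88). TET2 was closest to REL (0.88), an NF-kappa-B subunit, PRDM2 (0.86) and AFF1 (0.85), and TET3 to LOC100335642 (0.90), BNIP2 (0.88) and SAMD9 (0.88). DNMT1 was closest to CASP2 (0.84), KPNB1 (0.82) and IPO7 (0.81), both of the latter nuclear import factors. TDG was closest to CAPRIN1 (0.83), ETF1 (0.82) and EIF4G1 (0.82), of which ETF1 and EIF4G1 act in translation. UHRF2 was closest to WBP4, TRA2A and U2SURP (0.83 each), all of them splicing factors. TET1 was closest to ZKSCAN2 (0.81), LOC112448405 (0.80) and SOGA1 (0.79), MBD4 to WDR75 and KBTBD8 (0.76 each), and DNMT3A to DOCK9, PIK3C2B and EML5 (0.76, 0.73 and 0.72).

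The genes that work beside the members were taken as 5 lists with 50 genes in all, covering cofactors of the methyltransferases, readers of methylated DNA, base excision repair, TET cofactors and the methyl donor cycle. Between days in AI heifers, 6 of 47 tested were called (4 higher, 2 lower), beside 9.95% of all genes. GADD45A, a stress-response gene that has been linked to active demethylation, went from 9.62, 14.5 and 17.8 CPM (lowest, median, highest) on D55 to 23.8, 32.9 and 42.0 CPM on D105. The days did not overlap (log2 fold change 1.203, SE 0.147, edgeR adjusted p = 7.24e-05). POLB, the polymerase that fills the repaired gap, rose by 0.28 (edgeR adjusted p = 0.00703). In IVP-Normal heifers 2 of 46 were called beside 2.45% of all genes, GADD45A (1.94, SE 0.29, edgeR adjusted p = 0.00481) and GADD45B (0.68, SE 0.126, edgeR adjusted p = 0.0114), and in IVP-LOS heifers 0 of 46 by edgeR, with 6 at an unadjusted p under 0.05 beside 1911 of 15163 genes. GADD45A was higher on D105 in 8 of 8 AI, 6 of 6 IVP-Normal and 8 of 9 IVP-LOS heifers. The neutrophil markers of these comparisons are given above with the TET1 values.

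In heifers 604 and 664 on D105, 5 of 48 tested were called (3 higher, 2 lower), against 21.1% of all genes. DMAP1, which binds DNMT1, was 36.3 and 37.8 CPM, above the 21.7 to 30.8 CPM of the others (log2 fold change 0.50, SE 0.099, edgeR adjusted p = 0.00239). DNMT3L, the cofactor of DNMT3A and DNMT3B without catalytic activity, had 0 reads in both and between 1 and 17 reads in the others, too few for a fold change. AHCYL2, related to the enzyme that clears S-adenosylhomocysteine, was 23.1 and 18.2 CPM, against 21.5 to 31.4 CPM (log2 fold change −0.44, SE 0.133, edgeR adjusted p = 0.0228). Between heifers, 20 of 47 were called against 44.0% of all genes, led by UNG (edgeR adjusted p = 2.02e-07), the uracil glycosylase, APEX1 (2.71e-05), the endonuclease of base excision repair, and HELLS (4.59e-05), a chromatin remodeler needed for full methylation. In the 6 comparisons of groups and on D55 for the pair, 0 of the genes tested in these lists were called by edgeR, with 1 to 8 at an unadjusted p under 0.05. In the 4 tests of a difference in the change between days this was again 0, with 1 to 7 at an unadjusted p under 0.05.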

How the data were processed

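Leukocyte RNA of 23 heifers on 2 days was sequenced as 100-base read pairs. Per the labels and the study's methods, the authors aligned reads with HISAT2 to ARS-UCD1.2 and deposited raw counts per NCBI gene made with HTSeq in union mode, without normalization; reads shared by overlapping genes are dropped by that mode. Counts were tested with edgeR 4.0.16 in R 4.3.3 (TMM, filterByExpr with a minimum count of 10, quasi-likelihood F-test), and genes with a Benjamini-Hochberg adjusted p of at most 0.05 over all genes were called. The SE is the size of the log2 fold change divided by the square root of F. Replicates are animals. The tests of a difference in the change between days and the test between heifers used all 46 libraries. In the other comparisons only the groups compared entered a fit. Fits over both days without a term for the heifer took both libraries of an animal as independent. Depth was 18692653 to 24502012 reads per library. The members and lists were chosen with earlier results of these data known. Named beside the members were the 3 called list genes with the smallest adjusted p per comparison and the 3 genes with the highest r to each member, on log2 CPM with a prior count of 2. A few genes named by this rule are not reported here. Group-adjusted profiles of the same heifer had a mean r of 0.517 between days (lowest 0.324), against −0.02 for other heifers, so that heifer numbers pair the libraries. DESeq2 1.42.0 and other alternatives are given in the closing section. A second table of Ensembl genes was not used, and no sequences were used.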

Additional observations from a re-analysis of the deposited data

Results flagged for a closer look

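TDG in the AI group on D105 stood apart in 1 heifer. Heifer 546 had 48.0 CPM, while the other 7 heifers lay between 37.2 and 39.6 CPM, and the gap took 0.774 of the whole range. Among 60 groups of libraries checked this way (10 members in 6 groups of 6 to 9 heifers), this was the 1 group in which a library lay beyond the critical value, and chance alone would be expected to mark about 5% of groups.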

How the results depend on the processing

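Over 16 comparisons, 160 member results gave 1360 alternative values, of which 17 lost and 11 gained a call and 0 reversed a called direction; 63 differed in sign without a call in either setting. In AI heifers between days, 1 member became 0 in the fit of all 46 libraries. For heifers 604 and 664 on D105, 4 members became 0 with the share of reads on no gene as a covariate, 2 among IVP-LOS heifers, 3 without a filter on low counts (TET1, adjusted p = 0.0525), and 0 without either heifer of the pair, where 1 library was assumed to vary like the other 21 and the log2 fold changes of TET3 and UHRF2 stayed at −0.71 to −0.80 and 0.35 to 0.46. Between heifers, 5 members became 4 without a filter on low counts (MBD4, adjusted p = 0.0523). For the change between days of the pair, 0 members became 1 with DESeq2, with its size factors, or without heifer 637 (UHRF2 each time; the last alternative was chosen after the data were seen), and 4 with the heifer as a replicate block, which changed no other member call. Counts over all genes moved more. Between days they were 374 in IVP-Normal (613 by the likelihood ratio test, 823 by DESeq2, 657 with all libraries, 838 with the block), 38 in IVP-LOS (227, 422, 558 and 162 in the same order, 143 with the covariate, 12 without the pair, 24 without heifer 637) and 1517 in AI (2603 with the block). For the pair they were 3550 on D105 (0 with the covariate, 567 and 725 without heifer 604 or 664, 1466 in IVP-LOS) and 359 for the change between days (581 by the likelihood ratio test, 878 by DESeq2, 191 without a filter on low counts, 5 with the covariate, 28 and 6 without heifer 604 or 664, 664 without heifer 637, 2885 with the block). On D105 the share of reads on no gene was higher in both heifers of the pair than in all others, so the covariate cannot be separated from the pair. The cause of these shifts was not tested. The alternative on Ensembl genes was not run, since its identifiers are not paired with symbols. With 2 heifers in the pair, and 89 reads of TET1 in the lowest library, small changes were beyond the reach of these data.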
